A study of Mus musculus with 40 samples.

Results

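Subcutaneous white adipose tissue (sWAT) of HFD-fed mice given tirzepatide was compared with that of HFD-fed mice given semaglutide, gene by gene, in 16 of the 40 RNA libraries of the series. These 16 were chosen by their labels, 8 per drug, with no use of the measured values. HFD is the high-fat diet, and both groups ate it. The other 24 libraries were HFD-fed mice without drug, ND-fed mice, and mice switched from HFD to ND, 8 of each, and they enter below as the levels on HFD and on ND and as part of the estimate of spread. The labels give no dose, length of treatment, sex, age, strain or depot beyond subcutaneous, and do not say whether each library came from its own mouse, so the p-values measure the spread between these libraries, which may be partly technical.

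Semaglutide is a long-acting agonist of the receptor for glucagon-like peptide 1 (GLP-1). Tirzepatide is a single peptide that activates both that receptor and the receptor for glucose-dependent insulinotropic polypeptide (GIP). Both drugs lower food intake and body weight, and white adipose tissue stores triglyceride, takes up glucose under insulin and secretes leptin and adiponectin. The subcutaneous fat of a mouse lies on skeletal muscle, and its inguinal part holds a lymph node, so pieces of either can come along in a dissection. In bulk tissue, fewer cells of a type and less RNA per cell cannot be told apart.

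Genes were called when the Benjamini-Hochberg adjusted p of edgeR's quasi-likelihood test was under 0.05, over all 15807 genes tested. Of these, 1584 passed (10%), 649 higher with tirzepatide (4.11%) and 935 lower (5.92%). Among the genes that passed, the median log2 fold change was 0.74 for those higher and -0.92 for those lower, and 577 differed by more than 2-fold, 180 of them higher and 397 lower. The ranges of CPM (counts scaled to the size of the library) of the 8 tirzepatide and the 8 semaglutide libraries did not overlap at all for 204 genes (1.29%), 92 higher (0.582%) and 112 lower (0.709%). Leaving out the muscle-rich and the lymph-node-rich libraries described below kept the sign of 1561 of the 1574 passing genes that could still be tested, and the number that passed fell to 358 with 4 tirzepatide and 5 semaglutide libraries. That fit reuses libraries of the full one, so kept signs are no independent check.

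**Figure D1:**
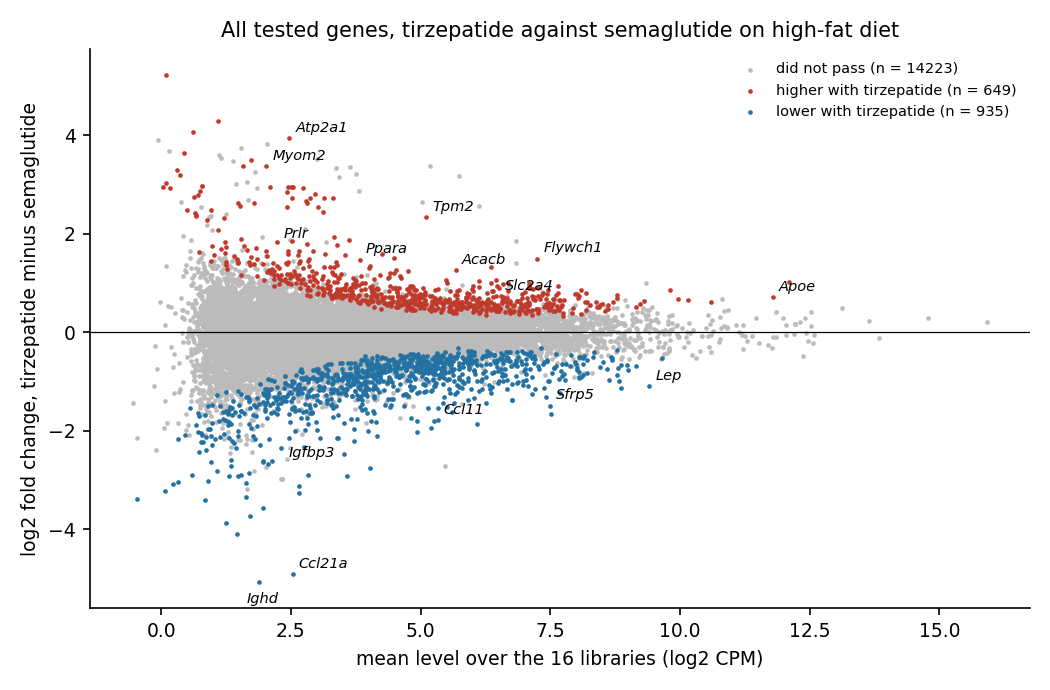
Mean level of each tested gene over the 16 libraries (log2 CPM, horizontal) against its log2 fold change, tirzepatide minus semaglutide (vertical). Each point is a gene, red for the 649 that passed and were higher with tirzepatide, blue for the 935 that passed and were lower, grey for the rest, and the widest differences, such as those of Ighd and Atp2a1, are among genes of low level.

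Set beside the HFD libraries without drug, 3246 genes passed for tirzepatide (20.5%), 9.79% of tested genes as higher and 10.7% as lower, and 656 for semaglutide (4.15%), 1.52% as higher and 2.63% as lower. These comparisons share the HFD libraries, and each shares a drug group with the comparison of the drugs. Of the 1584 genes that passed between the drugs, 953 also passed between tirzepatide and HFD, 96 between semaglutide and HFD, and 578 in neither. For 1294 of the 1584 (81.7%, against 62.9% of all tested genes) the semaglutide mean lay nearer to HFD than the tirzepatide mean did. The tirzepatide mean lay nearer to ND for 488 of the 1584 (30.8%, against 41.2% of all tested genes). These shares describe positions of means, since the groups that define them overlap with the comparison itself.

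The 16 libraries differed in how much RNA of other tissues they held, and among these 16 this divided along the drugs. A skeletal muscle score, the mean log2 CPM of 13 muscle genes that could be tested, ran from 0.985 through a median of 1.68 to 4.30 with semaglutide and from 1.21 through 5.49 to 7.36 with tirzepatide. The score was above 5 in tirzepatide libraries 1, 4, 5 and 7 and in no semaglutide library. Without drug it was above 5 in 2 ND libraries (highest 7.93), 1 HFD library and 3 libraries of the diet switch, so such scores were not particular to tirzepatide. Tirzepatide 2 was just under that limit at 4.98 and was kept, and the lowest score above it among these 16 was 5.99 in tirzepatide 1. The summed level of the list ran from 71.7 to 514.7 CPM with semaglutide and from 134.8 to 3593 CPM with tirzepatide. The rest of the 19 listed muscle genes were too low to test. Over the semaglutide and the tirzepatide libraries, Mb, myoglobin, had 0 and 1 counts, Myh7 0 and 1, Tnnc2 2 and 31, and Tnnc1 14 and 22. Tnnt1, with 28 and 13, and Tnni1, with 14 and 3, had more counts with semaglutide. All 13 tested muscle genes had a positive log2 fold change, with a median of 3.33 against -0.01 over all tested genes, and 4 of them passed, all higher. Atp2a1, the calcium pump of fast muscle fibres, ranged from 0.233 through 1.14 to 9.41 CPM with semaglutide and from 0.553 through 15.1 to 143 CPM with tirzepatide, a log2 fold change of 3.95 ± 1.23 (SE, edgeR adjusted p = 0.037). Its ranges overlapped widely. A fit left out the 10 muscle-rich libraries of the series, 4 of them tirzepatide. There the log2 fold change of Atp2a1 was 0.92 ± 0.89 (adjusted p = 0.618), and none of the 13 genes passed. Those libraries were left out by the score of these same genes, so a smaller difference followed from the choice and tests nothing. The count of 4 passing muscle genes was also 0 without semaglutide 1, 2, 3, 5, 7 or 8 or without tirzepatide 4 or 7, and 2 without tirzepatide 1.

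Lymph node genes divided the other way. The B cell score ran from 2.25 through 3.00 to 7.35 with semaglutide and from 1.94 through 2.48 to 3.10 with tirzepatide, and was above 5 in semaglutide 1, 3 and 8 and in no tirzepatide library. Without drug it was above 5 in 1 ND library, at 7.33. The summed level of the list ran from 91.7 to 2329 CPM with semaglutide and from 71.7 to 282.1 CPM with tirzepatide. Of 12 B cell markers only 4 could be tested, and 3 of them passed, all lower with tirzepatide, with a median log2 fold change of -3.04. Ighd, the heavy chain of the antigen receptor of naive B cells, had 0.285, 3.31 and 146 CPM as lowest, median and highest value with semaglutide and 0, 1.21 and 3.16 CPM with tirzepatide, a log2 fold change of -5.08 ± 1.21 (edgeR adjusted p = 0.00756). Of these 16 libraries, only semaglutide ones reached the high values. T cell markers had a median of -2.60, with 4 of 10 tested members lower, and Ccl21a, a chemokine of lymph node stroma, had a log2 fold change of -4.91 ± 1.32 (edgeR adjusted p = 0.0168). A further fit left out the 4 lymph-node-rich libraries of the series, 3 semaglutide and 1 ND. No member of the B cell, T cell or lymph node stroma lists passed as lower there. Ighd had a log2 fold change of -0.66 ± 0.70 (adjusted p = 0.637). Those libraries were left out by the score of B cell markers, Ighd among them. A smaller difference in lymph node genes therefore followed from the choice and tests nothing. The 3 B cell markers were 1 without semaglutide 1, and the 4 T cell markers were 0 without semaglutide 1, 2 without semaglutide 8, 6 without semaglutide 2, 5 or 7 and 7 without semaglutide 6.

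**Figure D2:**
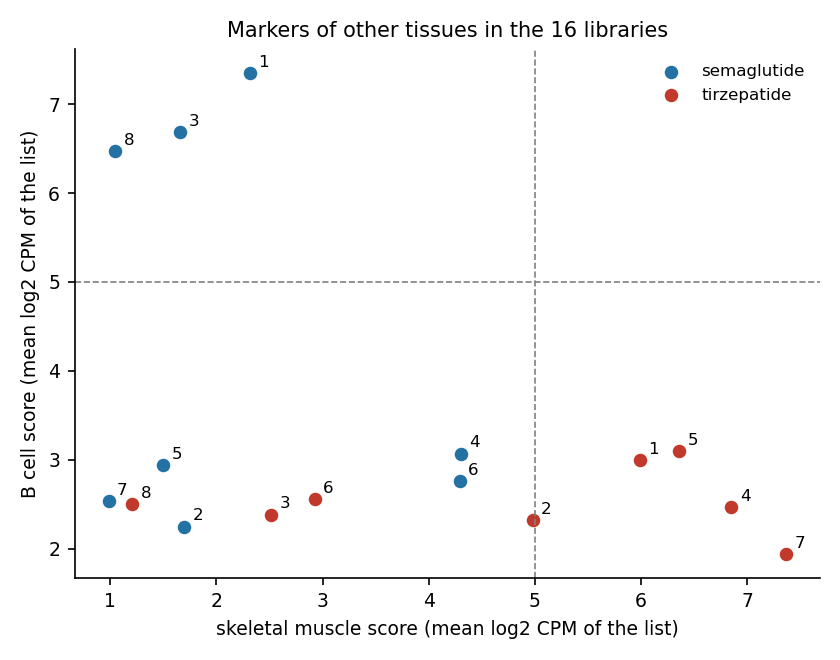
Skeletal muscle score (horizontal) against B cell score (vertical), both as mean log2 CPM of the list, 1 point per library with its replicate number. The dashed lines mark the score of 5 above which libraries were left out: tirzepatide 1, 4, 5 and 7 lie to the right of the vertical line and semaglutide 1, 3 and 8 above the horizontal line.

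Within groups, 18 of the 649 higher genes (2.77%, against 0.588% of all tested) followed the muscle score with a correlation above 0.5, and 87 of the 935 lower genes (9.30%, against 5.45%) followed the B cell score. Of the passing genes that followed the muscle score, 11 could be tested with the muscle-rich and lymph-node-rich libraries left out: their median absolute log2 fold change went from 2.35 to 0.503 in the original direction, and 0 passed. Passing genes of either direction that followed the B cell score and could be tested there also numbered 87, 3 of them higher (Aif1, Rpsa and Rpl14). Their median absolute log2 fold change went from 1.18 to 0.375 in the original direction, and 5 passed. The 1476 passing genes that followed neither score went from 0.82 to 0.759, all 1476 kept their sign, and 282 passed. All these genes were chosen by the fit of all libraries, and the smaller fit reuses part of the same libraries. Kept signs and sizes are therefore no independent check. A drop in genes that followed a score also follows from leaving out libraries by that score. With both scores as covariates in the fit of all libraries, 703 genes passed, 306 higher and 397 lower, 555 of them among the original 1584.

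**Figure D3:**
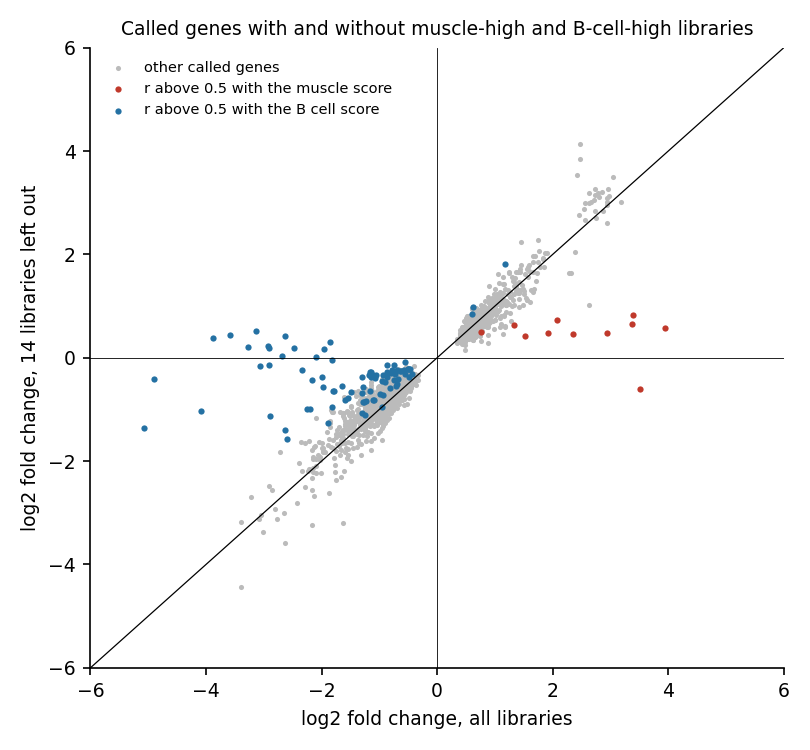
Log2 fold change, tirzepatide minus semaglutide, of each passing gene in the fit of all libraries (horizontal) and with the 14 muscle-rich or lymph-node-rich libraries of the series left out (vertical), with the line of equality. Red points are genes that followed the muscle score within groups and blue points genes that followed the B cell score, many of which lie near 0 on the vertical axis, while the grey points, genes that followed neither, lie along the line.

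In 4 fits that dealt with the muscle and lymph node RNA (without the muscle-rich libraries, without the lymph-node-rich ones, without both, and with the scores as covariates), 184 genes passed each time and in the fit of all libraries, 90 higher and 94 lower. Counts of list members below stand beside 4.11% of all tested genes higher and 5.92% lower. With both kinds of library left out, the shares were 163 higher and 195 lower of 16333 tested. No list was tested as a set.

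Adipocyte genes were expressed in both groups, though not all at the same level. Of 20 tested genes of adipocyte identity, 2 were higher (Slc2a4 and Cfd) and 1 lower (Pparg). The list median was 0.12, with values from -0.97 to 1.03. Adipoq (adiponectin) had a mean of 2309 ± 399 CPM (SD, n = 8) with tirzepatide and 2298 ± 603 CPM with semaglutide, a log2 fold change of 0.01 with a 95% interval from -0.34 to 0.35. The drugs' receptors were hardly seen. Gipr, the GIP receptor, ran from 0 through 2.35 to 5.42 CPM with semaglutide and from 1.20 through 3.56 to 4.93 CPM with tirzepatide, a log2 fold change of 0.45 with a 95% interval from -0.55 to 1.44 (edgeR adjusted p = 0.61). Glp1r, the GLP-1 receptor, had 8 counts over the 8 semaglutide libraries and 20 over the 8 tirzepatide libraries and was too low to test. No member of the incretin receptor list passed among the 4 tested.

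Igfbp3 had the smallest adjusted p of all genes. It lies at chr11:7206086-7213923 on the minus strand (GENCODE M21 on GRCm38, the assembly that mm10 names) and encodes a binding protein that carries insulin-like growth factors. The semaglutide libraries held 17.4, 22.2 and 27.5 CPM as lowest, median and highest, and the tirzepatide libraries 2.15, 4.4 and 8.92 CPM. Every tirzepatide library was below every semaglutide library, by a log2 fold change of -2.15 ± 0.30 (edgeR adjusted p = 6.26e-05). The HFD mean of 15.5 ± 9.22 CPM (SD, n = 8) and the ND mean of 11.7 ± 5.3 CPM lay between the drug groups. Of the 11 tested genes of insulin-like growth factor and growth hormone signalling, 3 were lower and none higher, with a list median of 0.23. The others were Igf2r, the receptor that clears IGF2, at -0.49 ± 0.15 (adjusted p = 0.0276), and Igfbp7, at -1.13 ± 0.36 (adjusted p = 0.0411). With both kinds of rich library left out Igf2r passed (-0.78, adjusted p = 0.0132) and Igfbp7 did not (-0.97, adjusted p = 0.234). Igf2r and Igfbp7 overlap Airn and Polr2b on the opposite strand. Igf1 itself was at 0.26 with a 95% interval from -0.06 to 0.58. The count of 3 was 1 without semaglutide 4 or 7 or without tirzepatide 2, 3 or 4.

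Among the largest decreases, Plp2, a small membrane protein, had 7.21, 19.4 and 28.0 CPM with semaglutide and 1.19, 3.66 and 8.20 CPM with tirzepatide, so that the groups overlapped only at the edge (log2 fold change -2.14 ± 0.38, edgeR adjusted p = 0.000581). Plp2 overlaps Prickle3 on the opposite strand, and whether the counting used strand is not given in the sources used here. Cystm1 had 19.6, 32.8 and 54.6 CPM with semaglutide and 3.76, 7.53 and 12.9 CPM with tirzepatide, without overlap (log2 fold change -2.0 ± 0.30, edgeR adjusted p = 0.000126). Slc5a7, the high-affinity choline transporter, was at -2.62 ± 0.61 (edgeR adjusted p = 0.00603), with semaglutide values spread from 0.529 to 41.3 CPM and every tirzepatide value below the semaglutide median of 11.8 CPM. The HFD mean of Slc5a7 was 29 ± 11.1 CPM (SD, n = 8) and the ND mean 5.53 ± 3.7 CPM. Leaving out the muscle-rich and lymph-node-rich libraries gave log2 fold changes of -2.13 for Plp2, -2.23 for Cystm1 and -3.59 for Slc5a7, all still passing.

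**Figure D4:**
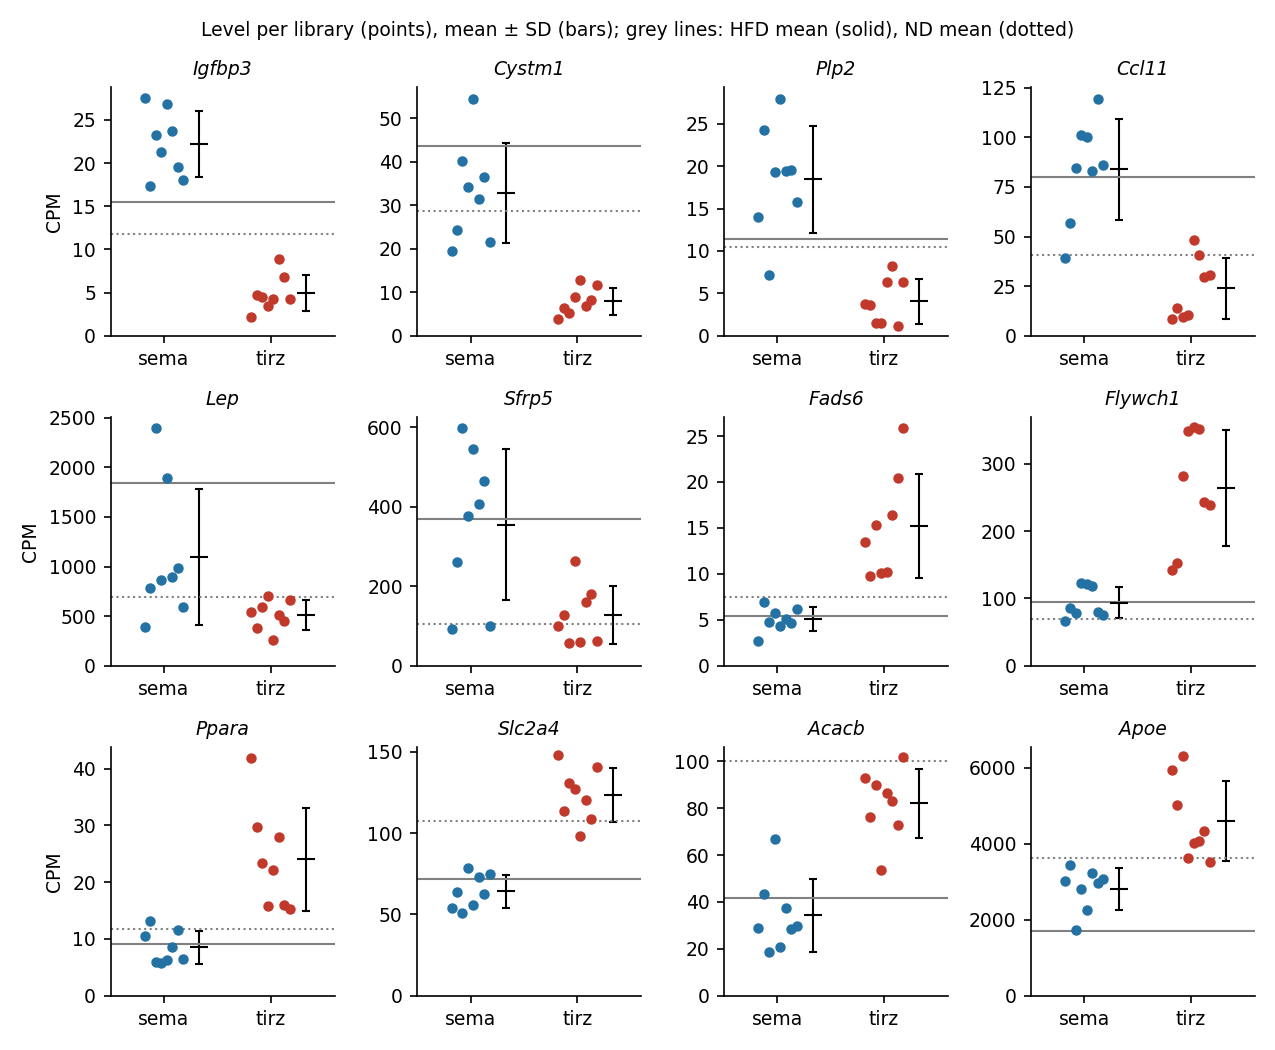
CPM of 12 genes in each of the 16 libraries (points, semaglutide blue and tirzepatide red, spread sideways only to be seen), with mean ± SD beside them (bars), the HFD mean (solid grey line) and the ND mean (dotted grey line). Igfbp3, Cystm1, Fads6, Flywch1, Ppara, Slc2a4 and Apoe show no overlap between the drugs, while Lep and Sfrp5 overlap, with some semaglutide libraries as low as the tirzepatide ones.

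Of the 7 genes of a list of genes known to rise as fat depots expand, all tested, 3 were lower and none higher, and the median log2 fold change was -0.83. Lep, at chr6:29060220-29073877 on the plus strand, encodes leptin, the hormone that reports fat mass. It had 387, 879 and 2396 CPM with semaglutide and 257, 526 and 705 CPM with tirzepatide. All 8 tirzepatide libraries were below the semaglutide median, but the ranges overlapped (log2 fold change -1.10 ± 0.29, edgeR adjusted p = 0.0139). The lowest 2 semaglutide libraries for Lep, and also for Sfrp5, were 1 and 8, both rich in lymph node genes. Semaglutide 3, also rich in them, was the highest of its group for both genes. The HFD mean of Lep was 1839 ± 134 CPM (SD, n = 8) and the ND mean 695 ± 286 CPM. Sfrp5, a secreted inhibitor of WNT signalling, had 93.0, 391 and 597 CPM with semaglutide and 57.1, 115 and 263 CPM with tirzepatide (log2 fold change -1.49 ± 0.39, edgeR adjusted p = 0.0139). Cav1, the main protein of caveolae, was at -0.68 ± 0.19 (adjusted p = 0.0173). Mest at -1.18 (adjusted p = 0.0907) and Npr3 at -0.83 (adjusted p = 0.0737) did not pass. Without semaglutide 1 the list had 5 lower members. Without the muscle-rich libraries alone it had 0, with Lep at -1.02 ± 0.39 and Sfrp5 at -1.78 ± 0.51, and without both kinds of library it had 4.

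Slc2a4 was higher. It lies at chr11:69942539-69948188 on the minus strand and encodes GLUT4, the transporter that insulin brings to the adipocyte surface. It had 50.9, 63.1 and 78.2 CPM with semaglutide and 98.1, 124 and 148 CPM with tirzepatide. The groups did not overlap (log2 fold change 0.94 ± 0.15, edgeR adjusted p = 0.000171). The HFD mean was 71.6 ± 17.3 CPM (SD, n = 8) and the ND mean 107 ± 22.6 CPM, so semaglutide lay by the first and tirzepatide by the second. Slc2a4 is also a muscle gene, but within groups its correlation with the muscle score was -0.03, and with the muscle-rich libraries left out its log2 fold change was 0.99 ± 0.18. Of the 17 insulin signalling and glucose transport genes, 2 were higher and none lower, with a median of 0.02, the other being Pik3r1, a regulatory subunit of phosphoinositide 3-kinase, at 0.69 ± 0.18. Without the muscle-rich libraries, the lymph-node-rich ones or both, 1 of them passed. Irs1, the first docking protein below the insulin receptor, was at 0.08 with a 95% interval from -0.31 to 0.48.

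Of 14 genes of the de novo synthesis list, 3 were higher and none lower, with a list median of 0.10. Acacb, which makes the malonyl-CoA that holds back fatty acid oxidation, had 18.5, 29.3 and 66.8 CPM with semaglutide and 53.5, 84.9 and 102 CPM with tirzepatide. A single semaglutide library reached into the tirzepatide range (log2 fold change 1.27 ± 0.23, edgeR adjusted p = 0.000677), and the ND mean was 100 ± 24.7 CPM (SD, n = 8). Acaca, the carboxylase that commits carbon to fatty acids, was at 0.91 ± 0.26 (adjusted p = 0.0208, and 0.0607 without tirzepatide 1). Thrsp, a lipogenic regulator induced by thyroid hormone, was at 0.95 ± 0.24 (adjusted p = 0.0107). Fasn, the synthase itself, just missed the threshold at 1.00 ± 0.34 (adjusted p = 0.0513), with 301, 436 and 1141 CPM with semaglutide and 345, 838 and 2412 CPM with tirzepatide. It passed without semaglutide 8, without tirzepatide 4, 6 or 7, and with both kinds of rich library left out (1.38 ± 0.31, adjusted p = 0.0156). In that last fit Thrsp (1.08 ± 0.31, adjusted p = 0.0619) and Acaca (1.04 ± 0.31, adjusted p = 0.0678) did not pass, nor did Acaca without the lymph-node-rich libraries alone (adjusted p = 0.0595). Scd1, the most abundant of the named members, was at 0.17 with a 95% interval from -0.23 to 0.57. Levels on ND were far higher for several of these genes: 4878 ± 1447 CPM for Fasn and 434 ± 93.5 CPM for Acaca, against drug group means of at most 1047 CPM and 133 CPM.

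Ppara, at chr15:85734983-85802819 on the plus strand, is the nuclear receptor that switches on fatty acid oxidation. It had 5.70, 7.49 and 13.1 CPM with semaglutide and 15.4, 22.8 and 41.9 CPM with tirzepatide. The groups did not overlap (log2 fold change 1.48 ± 0.28, edgeR adjusted p = 0.000976), and the HFD mean of 9.19 ± 2.86 CPM (SD, n = 8) and the ND mean of 11.8 ± 7.49 CPM were both below the tirzepatide range. The oxidation list as a whole was divided. Of 19 tested genes, 3 were higher (Ppara, Etfb and Decr1) and 2 lower (Etfdh and Cpt1a), with a median of 0.03. Etfb, a subunit of the flavoprotein that takes electrons from fatty acid oxidation, had 76.4, 114 and 125 CPM with semaglutide and 154, 193 and 242 CPM with tirzepatide, again without overlap (log2 fold change 0.87 ± 0.15, edgeR adjusted p = 0.000404). Etfdh, the next enzyme of that path, was at -0.61 ± 0.20 (adjusted p = 0.0391), and Cpt1a, which brings fatty acids to the mitochondrion, at -0.47 ± 0.16 (adjusted p = 0.0435). The count of 2 lower genes was not stable: it was 0 without semaglutide 4, 5, 7 or 8 or tirzepatide 7, and 1 without semaglutide 2, 3 or 6 or without tirzepatide 1, 2, 3, 4, 6 or 8. None of the 4 fits that dealt with muscle and lymph node RNA called Decr1 (0.60 ± 0.17 with all libraries, adjusted p from 0.0504 to 0.118 in the 4) or any lower member, while Ppara and Etfb passed in each.

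Nuclear genes of the respiratory chain were likewise divided. Of 23 tested, 4 were higher (Ndufb8, Uqcrc1, Atp5o and Sdhb) and 3 lower (Sdhc, Uqcrfs1 and Cox5a), with a median of 0.14. Ndufb8, of complex I, had 98.6, 113 and 126 CPM with semaglutide and 139, 166 and 210 CPM with tirzepatide (log2 fold change 0.59 ± 0.12, edgeR adjusted p = 0.00236). Uqcrc1, of complex III, had 132, 172 and 216 CPM with semaglutide and 216, 277 and 336 CPM with tirzepatide (log2 fold change 0.66 ± 0.15, edgeR adjusted p = 0.00478). Neither overlapped between the drugs. With both kinds of rich library left out, 2 were higher and 0 lower. The higher count was also 2 without semaglutide 1, 2 or 7 or tirzepatide 8, and the lower count 1 without semaglutide 1, 2, 4, 5 or 6 or tirzepatide 1, 2, 3, 4 or 7.

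Pyruvate handling included genes on both sides. Pdk2, a kinase that holds back pyruvate oxidation, was higher (0.78 ± 0.17, edgeR adjusted p = 0.00305), as was Pcx, pyruvate carboxylase (0.67 ± 0.17, edgeR adjusted p = 0.00851), with Pcx at 123, 153 and 184 CPM with semaglutide and 191, 218 and 355 CPM with tirzepatide. Mpc2, a subunit of the mitochondrial pyruvate carrier, was lower (-0.90 ± 0.27, edgeR adjusted p = 0.0256), although not without tirzepatide 4 or 7 (largest adjusted p 0.0562). Of the 12 genes of the glyceroneogenesis and pyruvate list, 2 were higher and 1 lower (3 lower without tirzepatide 8), with a median of -0.32. With both kinds of rich library left out none of the 3 passed (Pdk2 0.61 ± 0.20, Pcx 0.71 ± 0.21, Mpc2 -0.86 ± 0.35). Pcx overlaps Lrfn4 on the opposite strand. Pck1, the key enzyme of glyceroneogenesis, was at -0.37 with a 95% interval from -0.91 to 0.17.

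Of 8 cholesterol efflux genes, 3 were higher and none lower, with a median of 0.09. Of 21 tested genes of cholesterol synthesis and uptake, none was higher and 2 were lower, with a median of -0.12 and 14 values below 0. The 2 were the synthesis enzymes Tm7sf2 (-1.65 ± 0.47, adjusted p = 0.0194) and Hsd17b7 (-0.89 ± 0.28, adjusted p = 0.0342). That count was 1 without semaglutide 1, 3, 5 or 7 or tirzepatide 1, 2 or 3 or without the lymph-node-rich libraries, and 0 without the muscle-rich libraries, without both kinds and with covariates. Apoe, the apolipoprotein that carries cholesterol out of fat cells and macrophages, had 1740, 2993 and 3435 CPM with semaglutide and 3512, 4204 and 6306 CPM with tirzepatide. Every tirzepatide library was above every semaglutide library (log2 fold change 0.71 ± 0.15, edgeR adjusted p = 0.00265). Apoe is a gene in which both drugs passed against HFD, by 1.42 for tirzepatide (adjusted p = 1.21e-08) and 0.72 for semaglutide (adjusted p = 0.0024). Npc1, which releases cholesterol from lysosomes, was at 0.83 ± 0.17 (adjusted p = 0.00152), and Scarb1, a receptor for high-density lipoprotein, at 0.42 ± 0.14 (adjusted p = 0.0456). Scarb1 no longer passed in 11 of the 16 fits that left out 1 library, those without semaglutide 1, 2, 3, 5, 6 or 7 or tirzepatide 1, 2, 3, 5 or 8 (largest adjusted p 0.104), nor in any of the 4 fits that dealt with muscle and lymph node RNA (0.121 to 0.193). Npc1 overlaps Rmc1 on the opposite strand. Abca1, the main cholesterol exporter, was at -0.37 with a 95% interval from -0.72 to -0.02 and did not pass (adjusted p = 0.168).

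Of 19 tested lipolysis and lipid droplet genes, 3 were higher and none lower, with a median of 0.35 and 16 of 19 values above 0. The 3 were Plin2, a coat protein of lipid droplets (0.49 ± 0.15, adjusted p = 0.0354), Npr1, the receptor for natriuretic peptides that drive lipolysis (0.61 ± 0.17, adjusted p = 0.0176), and Hcar2, a receptor that holds lipolysis back (0.91 ± 0.24, adjusted p = 0.0136). Without both kinds of rich library 0 passed, with values of 0.53, 0.56 and 0.92, and without tirzepatide 2 only 1 of the 3 did. Pnpla2, the first lipase of triglyceride breakdown, was at 0.14 with a 95% interval from -0.24 to 0.52.

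Pparg, the master regulator of the adipocyte, had 100, 161 and 209 CPM with semaglutide and 31.6, 51.5 and 195 CPM with tirzepatide, with 7 of 8 tirzepatide libraries below the semaglutide median (log2 fold change -0.97 ± 0.28, edgeR adjusted p = 0.0236). It did not pass without tirzepatide 3 or 4 (largest adjusted p 0.0533) or without the muscle-rich libraries (-0.63 ± 0.34, adjusted p = 0.315). Cfd, the adipokine adipsin, had 888, 3209 and 7877 CPM with semaglutide and 4317, 6767 and 11265 CPM with tirzepatide (log2 fold change 1.03 ± 0.33, edgeR adjusted p = 0.0381), against an HFD mean of 790 ± 537 CPM (SD, n = 8). Its call ended without semaglutide 1, 3, 5, 6, 7 or 8 or tirzepatide 1, 2 or 3 (largest adjusted p 0.0827), and in all 4 fits that dealt with muscle and lymph node RNA (0.138 to 0.318). Brown and beige adipocyte genes had 2 of 11 tested higher, Ppargc1b and Kcnk3, and none lower, with a median of 0.53 and all 11 above 0. That count was 1 without semaglutide 1, 2, 4, 6, 7 or 8 or tirzepatide 1, 2, 5 or 7 and 0 without tirzepatide 8 or without the lymph-node-rich libraries. Ucp1, the uncoupling protein, had 50 counts over the semaglutide libraries, 46 of them in 1 library, and 89 over the tirzepatide libraries, and its log2 fold change of 0.70 had a 95% interval from -1.60 to 3.00.

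**Figure D5:**
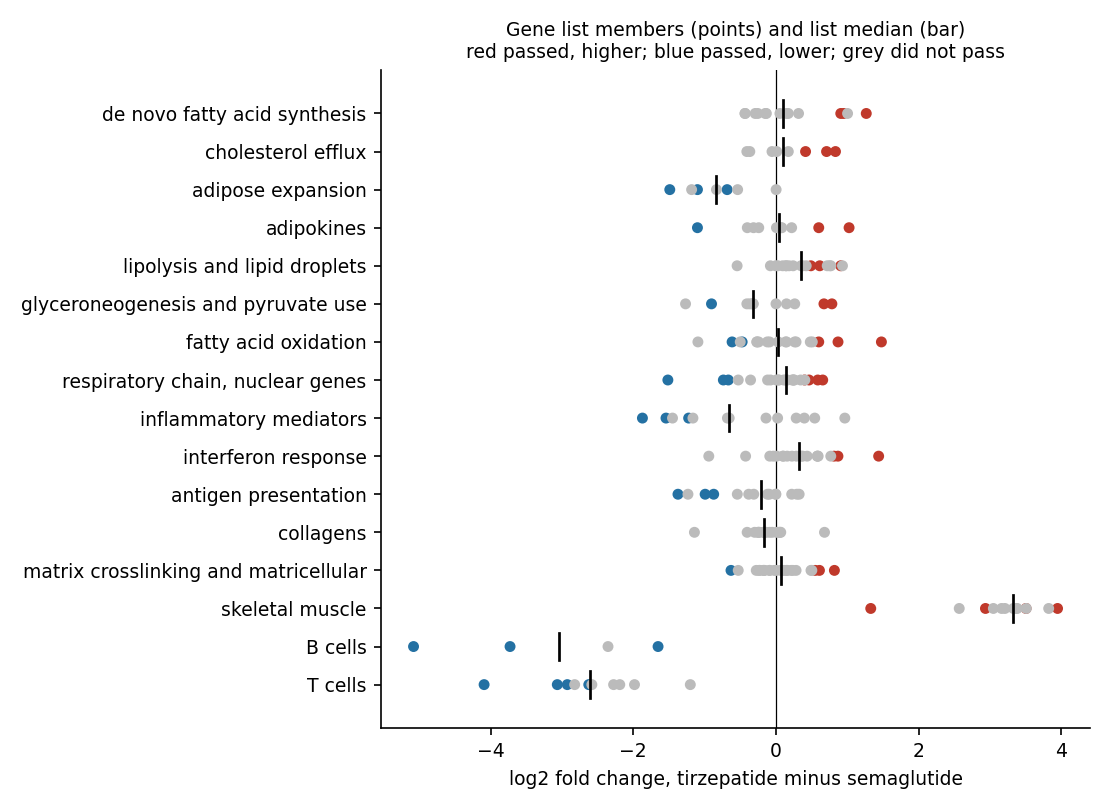
Log2 fold change, tirzepatide minus semaglutide, of the tested members (points) of 16 gene lists with the list median (vertical bar), red for members that passed and were higher, blue for members that passed and were lower, grey for the rest. Adipose expansion and inflammatory mediators have medians of -0.83 and -0.66, collagens of -0.16 with no member past the threshold, and the muscle, B cell and T cell markers stand apart at 3.33, -3.04 and -2.60.

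Ccl11, at chr11:82057823-82062955 on the plus strand, is eotaxin, which attracts eosinophils. It had 39.1, 85.1 and 120 CPM with semaglutide and 8.60, 21.6 and 48.1 CPM with tirzepatide. All 8 tirzepatide libraries were below the semaglutide median, with 1 semaglutide library inside the tirzepatide range (log2 fold change -1.79 ± 0.32, edgeR adjusted p = 0.000739). The tirzepatide median lay in a gap: libraries 1 to 4 had 8.60 to 13.9 CPM and libraries 5 to 8 had 29.4 to 48.1 CPM. Tap2 and Slc38a2 divided at the same place, while Igfbp3 and Slc2a4 did not. The reason was not tested. The HFD mean was 80.1 ± 34.3 CPM (SD, n = 8) and the ND mean 40.6 ± 12.2 CPM. Of the 13 tested genes of the inflammatory mediator list, which does not hold Ccl11, 3 were lower and none higher, with a median of -0.66. They were Nos2, the inducible nitric oxide synthase, with 3.38, 4.24 and 6.05 CPM with semaglutide and 0, 0.894 and 3.62 CPM with tirzepatide (log2 fold change -1.87 ± 0.45, edgeR adjusted p = 0.00667), Ccl2 and Ccl7, both attractants of monocytes, at -1.54 ± 0.47 (adjusted p = 0.0321) and -1.22 ± 0.38 (adjusted p = 0.033). The count was 1 without semaglutide 5 or 7 or tirzepatide 1, 2, 3 or 4, 0 without the muscle-rich libraries and 1 without both kinds of rich library. Tnf and Il6 were too low to test. Of general macrophage markers, Adgre1 was at 0.09 with a 95% interval from -0.43 to 0.62, Cd68 at 0.24 with an interval from -0.33 to 0.81, and among 19 genes of lipid-associated macrophages 2 were higher (Apoe and Plin2) and 1 lower (Ctsl, the lysosomal protease cathepsin L, -0.78 ± 0.18, adjusted p = 0.00428). The 2 were 1 without semaglutide 1, 2, 6 or 7 or tirzepatide 1, 2 or 3.

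Of 20 tested interferon genes, 3 were higher (Ifi44, Rsad2 and Oas2) and none lower, with a median of 0.32. Of all tested genes, 4.11% were higher. Ifi44 had 2.47, 3.75 and 4.77 CPM with semaglutide and 4.45, 10.7 and 18.4 CPM with tirzepatide (log2 fold change 1.44 ± 0.48, edgeR adjusted p = 0.0459). Rsad2, which encodes the antiviral enzyme viperin, was at 0.82 ± 0.24 (adjusted p = 0.0238). The count was 1 without semaglutide 2, 3, 4, 5, 7 or 8 or tirzepatide 3, 4, 5 or 6, and 0 without the lymph-node-rich libraries. Of 14 antigen presentation genes, 3 were lower (Psmb9, H2-Aa and Tap2) and none higher, with a median of -0.22. H2-Aa, a class II chain carried by B cells and macrophages, had a within-group correlation of 0.73 with the B cell score, and its log2 fold change of -0.87 ± 0.27 (adjusted p = 0.0364) was -0.22 ± 0.22 without the lymph-node-rich libraries, where none of the 14 passed. The count of 3 was 1 without semaglutide 1 or 8 or tirzepatide 4 or 7.

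None of 17 collagens passed, with a median of -0.16: Col1a1 was at -0.09 with a 95% interval from -0.60 to 0.42, Col3a1 at 0.04 with an interval from -0.30 to 0.38, and Col6a3 at -0.17 with an interval from -0.50 to 0.17. None of 14 adipose progenitor genes and none of 13 autophagy and lysosome regulators passed. With limma-voom, 2 collagens and 3 progenitor genes were lower.

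Several of the clearest differences lay outside the lists, and the genes of this paragraph were picked by the size of their change among genes whose libraries separate. Flywch1, a zinc-finger protein, had 66.6, 83.3 and 124 CPM with semaglutide and 142, 263 and 355 CPM with tirzepatide, without overlap (log2 fold change 1.5 ± 0.22, edgeR adjusted p = 8.87e-05). Its HFD mean was 95.4 ± 43.2 CPM (SD, n = 8), and it overlaps a transcript on the opposite strand. Fads6, a fatty acid desaturase family member, had 2.64, 4.93 and 6.95 CPM with semaglutide and 9.76, 14.4 and 25.9 CPM with tirzepatide (log2 fold change 1.59 ± 0.27, edgeR adjusted p = 0.000367). Prlr, the prolactin receptor, had 1.59, 4.58 and 6.09 CPM with semaglutide and 9.19, 11.4 and 30.7 CPM with tirzepatide (log2 fold change 1.66 ± 0.31, edgeR adjusted p = 0.000889). Gsta4, a glutathione transferase that clears products of lipid peroxidation, had 2.50, 4.27 and 5.29 CPM with semaglutide and 6.31, 10.6 and 18.3 CPM with tirzepatide (log2 fold change 1.46 ± 0.29, edgeR adjusted p = 0.00126). None of these 4 genes overlapped between the drugs, and each passed in all 4 fits that dealt with muscle and lymph node RNA. Prlr and Gsta4 had ND means of 11.1 ± 3.14 CPM and 12.2 ± 3.14 CPM, inside the tirzepatide range and above the semaglutide range. Ciz1, at 1.56 ± 0.32, and Lrtm1, at 1.84 ± 0.42, also separated without overlap, but each lies over another gene, Dnm1 and Cacna2d3 respectively, on the opposite strand.

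Another set of lower genes was seen only after the values were known, and it gets no test of its own. It comprises parts of the actin cytoskeleton and genes known to respond to it. Tpm4, a tropomyosin of non-muscle cells, had 148, 198 and 246 CPM with semaglutide and 68.6, 109 and 129 CPM with tirzepatide (log2 fold change -0.90 ± 0.15, edgeR adjusted p = 0.000183). Myl12a, a regulatory light chain of non-muscle myosin, had 294, 361 and 567 CPM with semaglutide and 171, 200 and 264 CPM with tirzepatide (log2 fold change -0.87 ± 0.13, edgeR adjusted p = 8.87e-05). Cnn3, a calponin that binds actin, had 45.9, 51.4 and 64.0 CPM with semaglutide and 14.1, 22.2 and 32.3 CPM with tirzepatide (log2 fold change -1.19 ± 0.19, edgeR adjusted p = 0.000171). None of the 3 overlapped between the drugs. Myl12a overlaps its near relative Myl12b on the same strand and the muscle gene Myom1 on the other, so its counts are uncertain. Ccn1, a matricellular protein induced by the YAP coactivator, was at -1.74 ± 0.32 (adjusted p = 0.000785), with 4.94, 12.1 and 19.3 CPM with semaglutide and 0.902, 2.83 and 10.6 CPM with tirzepatide. Of 37 tested genes of a textbook list of such genes, written down after these had been noticed, 11 were lower and 1, Arpc2, was higher, with a median of -0.29, against 5.92% of all tested genes lower, and nothing is read from a count so chosen. With both kinds of rich library left out 8 were lower, against 195 of all 16333 genes tested there. Tmsb4x and Actn1, members of the 11, followed the B cell score within groups. Ccn1 had an HFD mean of 15.2 ± 4.48 CPM (SD, n = 8) and an ND mean of 5.12 ± 2.12 CPM.

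The start regions of 4 of these genes are given so that their letters can be set beside the values, 250 bases upstream of the start that RefSeq annotates on GRCm38.p6, 5′ to 3′ on the gene's strand. They are those with the smallest adjusted p on each side among named genes with 1 annotated start and a window free of exons. Genes on chromosomes 8 and 18, such as Tpm4 and Cystm1, were left out of this choice. Stom, a membrane protein bound to cholesterol, was higher by 1.04 ± 0.17 (edgeR adjusted p = 0.000214). Capitals mark the GC box GGGCGG on either strand.
Stom, chr2:35337010-35337259, minus strand: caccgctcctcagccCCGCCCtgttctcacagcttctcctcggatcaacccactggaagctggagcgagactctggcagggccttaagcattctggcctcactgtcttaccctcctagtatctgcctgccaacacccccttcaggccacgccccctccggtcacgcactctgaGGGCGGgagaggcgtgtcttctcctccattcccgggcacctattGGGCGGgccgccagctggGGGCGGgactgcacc
Etfb, chr7:43443822-43444071, plus strand: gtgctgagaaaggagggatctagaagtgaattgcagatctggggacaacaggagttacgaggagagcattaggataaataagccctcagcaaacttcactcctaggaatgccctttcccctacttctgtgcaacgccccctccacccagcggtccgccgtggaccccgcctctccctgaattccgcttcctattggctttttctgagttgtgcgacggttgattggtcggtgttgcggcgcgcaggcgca
Igfbp3, chr11:7213924-7214173, minus strand: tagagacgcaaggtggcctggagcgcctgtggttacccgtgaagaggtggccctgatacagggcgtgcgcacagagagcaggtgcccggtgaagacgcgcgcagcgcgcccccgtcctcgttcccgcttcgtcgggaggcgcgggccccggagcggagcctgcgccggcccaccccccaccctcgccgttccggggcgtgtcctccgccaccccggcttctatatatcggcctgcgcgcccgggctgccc
Ccn1, chr3:145649986-145650235, minus strand: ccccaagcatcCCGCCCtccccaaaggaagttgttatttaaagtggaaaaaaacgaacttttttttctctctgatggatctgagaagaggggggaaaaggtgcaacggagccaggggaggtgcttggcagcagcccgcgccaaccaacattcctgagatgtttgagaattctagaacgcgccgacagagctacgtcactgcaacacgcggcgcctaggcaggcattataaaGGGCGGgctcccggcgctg
The windows of Stom and Ccn1 hold GC boxes, those of Etfb and Igfbp3 none, and none of the 4 holds a cAMP response element (TGACGTCA), an E-box (CACGTG) or a PPAR response element, searched on both strands. Over the windows of 413 higher and 529 lower genes, a GC box was present in 53.0% and 59.5%, against 58.6% of 10069 tested genes. The cAMP response element was present in 1.69% and 3.21%, against 2.63%, and the E-box in 9.93% and 9.64%, against 8.40%. These shares are descriptions of letters in a window and show nothing of a factor's binding.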

How the data were processed

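RNA of 40 sWAT samples was extracted with Nucleozol, made into LexoGen QuantSeq libraries, which count transcript ends, and sequenced on an Illumina HiSeq, per the labels' protocols. Counts of reads, 1 row per gene symbol, are what the authors deposited. The build is mm10, per the submitters' processing notes. Aligner, counter and use of strand: not given in the sources used here. A deposited normalized table was not used, nor were 16 of its columns that match no sample. The counts of the 16 libraries compared summed to 2115471 to 7445548 per library (median 3751000), and no pair of libraries was a copy (smallest chi-square per degree of freedom 4.21).

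The filterByExpr function kept 15807 of 34843 symbols, with 99.39% of the counts. TMM scaling preceded the fit in edgeR 4.0.16 in R 4.3.3 (quasi-likelihood, robust, 40 libraries in 1 fit, 1 mean per group). Log2 fold changes carry their SE and p-values were adjusted over all tested genes (Benjamini-Hochberg). CPM values are TMM-scaled, and log2 CPM used a prior count of 2. A list's score in a library is the mean log2 CPM of its tested members. Alternatives used DESeq2 1.42.0, limma 3.58.1, other filters, the replicate block, and each replicate left out. In counts simulated for this comparison over 15807 genes the test recovered 17.9% of genes changed 1.5-fold, 59.7% at 2-fold and 95.5% at 4-fold. The changed genes, 66 or 67 per size, came from those with a mean of at least 4 CPM, and 9 unchanged genes were called. Counts were drawn for each gene on its own, so RNA of another tissue shared between genes was not simulated.

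The libraries, lists, muscle and B cell checks and gene choices were made with earlier results of these data known. The score limit of 5, the left-out libraries, the covariate fit, the GC correction and the fit without predicted genes were chosen after seeing the data. Named genes were the drugs' receptors, the 12 largest changes per direction among called genes with mean log2 CPM of at least 2 in which all 8 libraries of a group lay on 1 side of the other group's median (predicted genes, near-identical families and markers aside), the 8 largest that also passed with covariates, and up to 4 called and 2 uncalled members of lists with 3 or more called. Other named genes were chosen after their values were seen, among them Mest, Irs1, Igf1, Pik3r1, Cpt1a, Tpm4, Myl12a, Cnn3, Stom, the macrophage markers and the collagens. Upstream windows came from RefSeq (GRCm38.p6) for 114 of 167 named genes, and the limit to 1 start and to windows without exons was set after a first look.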

Additional observations from a re-analysis of the deposited data

Results flagged for a closer look

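In 252 checks of the 8 libraries of a group, over 112 named genes and the library measures, 14 (5.56%) had 1 library farther from the others than Dixon's 95% limit for 8 values allows. Chance flags about 1 in 20 groups. No explanation was weighed for any of them.

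In the semaglutide group, library 3 was the lowest for Gng5-ps (5.157 log2 CPM, the nearest library at 5.871), Scarb1 (5.783, nearest 6.347), Mpc2 (7.9, nearest 8.513) and Acat1 (7.663, nearest 8.256), and it had the highest share of mitochondrial counts (14.82%, nearest 11.65%). Semaglutide 1 was the lowest for Decr1 (5.672 log2 CPM, nearest 6.214), Ctsl (7.1, nearest 7.916) and Myl1 (4.723, nearest 5.644). Both libraries were also high in B cell genes.

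In the tirzepatide group, library 8 was the highest for Prlr (4.965 log2 CPM, nearest 3.802) and Pth1r (4.824, nearest 4.009). Tirzepatide 4 was the lowest for Nrg4 (5.338, nearest 5.897). Tirzepatide 5 was the highest for Ccn2 (4.488, nearest 2.312), and tirzepatide 3 for Stom (7.257, nearest 6.713). The share of 18S ribosomal RNA was highest in tirzepatide 1 (12.72%, nearest 8.129%).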

How the results depend on the processing

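The count of 1584 passing genes (649 higher, 935 lower) changed by over 1.5 times in 5 fits. A test for a change of at least 1.5-fold called 20 genes (6 higher, 14 lower). Without the muscle-rich libraries 382 passed (214 higher, 168 lower, so 56.0% higher against 41.0%), without the lymph-node-rich ones 959 (405 and 554), without both 358 (163 and 195) and with the scores as covariates 703 (306 and 397). The fits that leave libraries out have fewer samples. Leaving out 1 library gave 1087 to 1690 genes, with 452 to 657 higher and 633 to 1065 lower. DESeq2 gave 2095 (12 muscle genes against 4 and 11 B cell genes against 3, with genes tested that the filter removes), limma-voom 2077, no filter 1141, a GC correction 1733. Among the genes examined by name, signs turned in Ryr1 with covariates (-0.0655), Myh1 without the muscle-rich (-0.0433) and both kinds of library (-0.60), Cd79b (0.60) and Cd3d (0.0761) with covariates, Trbc2 without the lymph-node-rich (0.24) and both kinds (0.22) and with covariates (0.43), and Trac in the same fits (0.55, 0.41 and 0.44). The cause was not tested. Over all passing genes that could be tested without both kinds of library, 1561 of 1574 kept their sign, in a fit that reuses libraries of the full one. Sign changes of genes that passed in neither fit were not counted. The replicate numbers do not pair the libraries: same-numbered deviations correlated at -0.118 to 0.0823, and the replicate block gave 1715 genes. At this depth the median SE of a log2 fold change was 0.243, and 17.9% of 1.5-fold changes simulated in genes of at least 4 CPM were recovered.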

Other observations

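The following genes were chosen after their values were seen. Each also passed with the muscle-rich and lymph-node-rich libraries left out, except where only the fit of all libraries is named. Gys1, the glycogen synthase of muscle and fat, had 43.1, 59.8 and 71.4 CPM as lowest, median and highest value with semaglutide and 89.5, 109 and 152 CPM with tirzepatide, without overlap (log2 fold change 1.00 ± 0.18, edgeR adjusted p = 0.000608). Gys1 overlaps Ruvbl2 on the opposite strand. Sh2b2, an adaptor of the insulin receptor, had 32.5, 43.2 and 67.4 CPM with semaglutide and 72.7, 88.5 and 103 CPM with tirzepatide, also without overlap (log2 fold change 0.88 ± 0.16, edgeR adjusted p = 0.000692). Both stood near their HFD means with semaglutide, 66 ± 13.3 CPM for Gys1 and 50.8 ± 5.32 CPM for Sh2b2 (SD, n = 8). Bcat2, the mitochondrial enzyme that begins the breakdown of branched-chain amino acids, was higher by 0.89 ± 0.20 (edgeR adjusted p = 0.00364). Slc38a2, a sodium-coupled transporter of neutral amino acids, was lower, with 154, 186 and 278 CPM with semaglutide and 69.7, 81.7 and 145 CPM with tirzepatide (log2 fold change -1.09 ± 0.17, edgeR adjusted p = 0.000126). Slc38a2 followed the B cell score within groups. Its highest semaglutide values, 278, 242.6 and 246.3 CPM, were in the lymph-node-rich libraries 1, 3 and 8. With both kinds of rich library left out its log2 fold change was -0.82. Odc1, the first enzyme of polyamine synthesis, was lower by 0.80 ± 0.17 on the log2 scale (edgeR adjusted p = 0.00305).

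Wnt10b, a secreted protein that holds back adipocyte formation, was lower with tirzepatide (-1.87 ± 0.50, edgeR adjusted p = 0.0155), as were Gas6, a ligand of the TAM receptors (-1.16 ± 0.29, edgeR adjusted p = 0.00877), and Tgfb3 (-0.89 ± 0.26, edgeR adjusted p = 0.0214). These are single genes and stand for no group, and genes of other secreted proteins were higher, such as Apoe (0.71 ± 0.15). Gas6 overlaps Tmem255b and Tgfb3 overlaps Ttll5 on the opposite strand. Aif1, a cytoskeletal protein of macrophages, was higher by 1.17 ± 0.31 (edgeR adjusted p = 0.0139), as was Fcgr4, an activating receptor for immunoglobulin G, by 1.25 ± 0.33 (edgeR adjusted p = 0.0123). They stand for no cell type. In the fit of all libraries, other passing genes of such cells went both ways, with Fcgr2b at -0.74, Itgb2 at -0.81 and Ms4a7 at 0.81. Of 17 tested resident macrophage genes none was higher and 1 was lower, with a median of 0.09. Of the 37 subunit and assembly genes whose symbols begin with Nduf and that could be tested, 5 were higher and 3 lower, with a median of 0.15, and 4 were higher and none lower with both kinds of rich library left out. Among them Ndufs6 had 73.8, 91.4 and 123 CPM with semaglutide and 163, 186 and 236 CPM with tirzepatide, without overlap (log2 fold change 0.99 ± 0.16, edgeR adjusted p = 0.000126), and it overlaps Mrpl36 on the opposite strand. Mup19, a major urinary protein, was higher by 2.73 ± 0.63 (edgeR adjusted p = 0.00621), but this family shares near-identical sequence, so how its counts divide between members is uncertain. Mup1 (2.66) and Mup20 (3.04) also passed as higher in the fit of all libraries. Mup19 had 58.8 and 56.3 CPM in tirzepatide 5 and 8. Tirzepatide 4 and 7, at 3.20 and 3.85 CPM, lay inside the semaglutide range of 0.909 to 5.64 CPM.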
